A study of Mus musculus with 4 samples.

Results

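The genes described here encode the enzymes that add methyl groups to histones or remove them, together with core subunits of their complexes, and were measured in mouse late 2C embryos. Members were chosen by name alone: symbols of the Kmt, Kdm, Setd, Setdb, Prmt, Ehmt, Suv39h, Ezh, Nsd and Smyd series, plus *Carm1*, *Eed*, *Suz12*, *Dot1l*, *Ash1l* and *Ash2l*. This rule took 63 of the 26022 genes in the table. The study asked what happens to the embryo transcriptome when DRP1, the GTPase that divides mitochondria, is inhibited. Embryos of the outbred ICR strain were cultured for 16 h with 200 μM Mdivi-1, a small molecule used as a DRP1 inhibitor, or without it, which gave 2 Mdivi-1 libraries and 2 Control libraries. Apart from the drug, the labels give both groups the same strain and stage. Females were 7 to 8 weeks old, and each group was made from 8 to 10 pooled embryos. A transcript level is therefore a mean over embryos, and fewer cells of a kind and less RNA per cell cannot be told apart. Since nothing in the labels or methods places replicates in separate litters, p-values measure only the spread between these libraries, which may be technical.

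Histone methylation is written on lysines and arginines of the histone tails, and its meaning depends on the residue. Methylation of H3K4 marks promoters and enhancers, that of H3K36 and H3K79 marks transcribed genes, and that of H3K9, H3K27 and H4K20 goes with silencing. In the mouse embryo these marks are rewritten within the first cleavages: broad H3K4me3 domains inherited from the oocyte are removed by KDM5 enzymes around the 2C stage, H3K27me3 of promoters is lost and H3K9me3 is newly placed, while the embryo switches from RNA stored by the oocyte to its own transcription.

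The raw counts summed to 17712075 and 18500928 in Mdivi-1 replicates 1 and 2 and to 20077326 and 18279626 in Control replicates 1 and 2. The members took 0.390% and 0.398% of them in the Mdivi-1 libraries and 0.457% and 0.292% in the Control libraries, so the 2 Control libraries lay on either side of the Mdivi-1 libraries. Levels are given as CPM, counts scaled to a common library size, after TMM normalization, and a count of 3, taken as the detection floor, is worth between 0.137 and 0.197 CPM in a library. The libraries correlated across genes, which are not replicates of each other, with an r of 0.870 within Mdivi-1, 0.863 within Control and 0.802 to 0.855 between groups (log2 CPM). All 9 oocyte and early embryo markers had counts, and their sums, mostly *Dppa3*, overlapped between groups. Without *Dppa3* the markers summed to 3540 and 4582 CPM in the Mdivi-1 libraries and to 1521 and 3123 CPM in the Control libraries, which did not overlap. Of the 9, 5 lay above both Control libraries (background 26.1% of genes tested) and 1 below (background 23.9%), and the median log2 fold change was 0.75. DESeq2 called 2 higher (background 3.23%), the oocyte growth factor *Bmp15* (log2 fold change 1.84, DESeq2 adjusted p = 2.5e-05) and the zona pellucida gene *Zp2* (log2 fold change 1.38, DESeq2 adjusted p = 0.0403). The 1 below was another zona pellucida gene, *Zp3*, with 149 and 99.2 CPM in the Mdivi-1 libraries and 198 and 270 CPM in the Control libraries. Its log2 fold change was -0.91 (DESeq2 adjusted p = 0.0946), and that of *Dppa3*, which overlapped between groups, was -0.51. Of 8 cumulus and granulosa cell markers, *Has2*, *Ptx3*, *Amh* and *Inha* had no count in any library, and the list summed to 14.8 and 18.6 CPM in the Mdivi-1 libraries and 7.78 and 15.7 CPM in the Control libraries. The 8 2-cell stage markers summed to 2087 and 2480 CPM in the Mdivi-1 libraries and to 1052 and 1817 CPM in the Control libraries, so the sums did not overlap. Single markers differed: DESeq2 called 3 higher (background 3.23%) and 1 lower (background 2.75%), and *Tcstv3* and *Tcstv1* overlapped between groups. The lower marker, *Pramel7*, had 156 and 155 CPM in the Mdivi-1 libraries and 311 and 546 CPM in the Control libraries (log2 fold change -1.46, DESeq2 adjusted p = 0.00163). The part of these differences in the results below was not tested.

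Levels of different genes were compared per kilobase of exon. Subunits of PRC2, the complex that methylates H3K27, led the order. *Suz12*, the subunit that holds PRC2 together, averaged 133 CPM per kb over the 4 libraries (SD 18.4), *Eed*, which reads H3K27me3 and stimulates the enzyme, 49.5 (SD 14.6), and *Ezh2*, the catalytic subunit, 29.6 (SD 5.60). The range of *Suz12* lay above that of *Eed*, and the range of *Eed* above that of *Ezh2*. From *Ezh2* downwards neighbours overlapped, except at the bottom, where *Kmt2a* preceded a gene with no counts. In all, 3 of 62 neighbouring pairs had ranges that did not overlap. Below *Ezh2* came *Kdm1b* at 27.3 CPM per kb, *Setd2* at 25.6, *Setdb2* at 25.4, *Kdm5b* at 21.4 and *Kdm7a* at 20.7. These are 3 demethylases, the enzyme that makes H3K36me3 (*Setd2*) and a putative H3K9 methyltransferase (*Setdb2*). The median member had 3.16 CPM per kb, 16 members had 10 or more and 17 had under 1. The 4 PRC2 genes, *Ezh1* included, held 40.4% and 40.9% of the members' summed CPM per kb in the Mdivi-1 libraries and 33.9% and 39.3% in the Control libraries. *Suz12* alone held 25.0% and 27.1% in the Mdivi-1 libraries and 22.3% and 20.8% in the Control libraries.

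**Figure D1:**
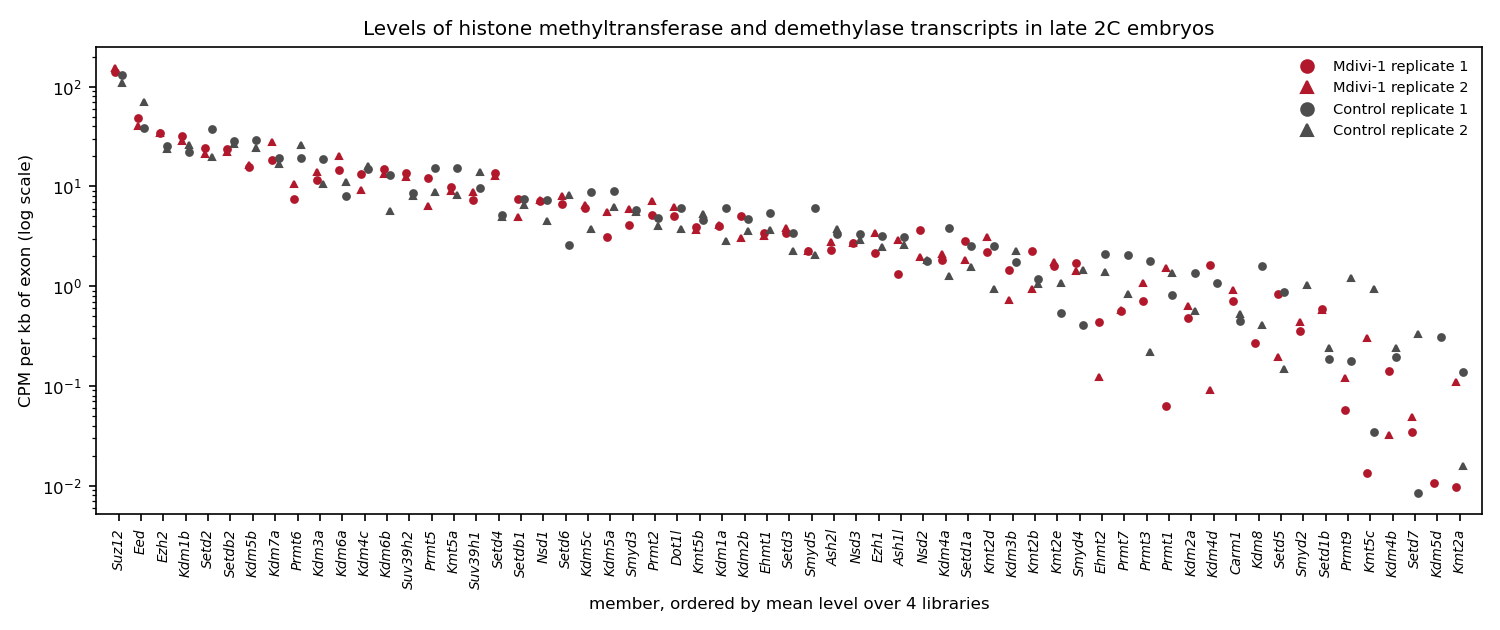
TMM-normalized CPM per kb of exon (log axis) of each member with a count, in order of its mean over the 4 libraries; red points are Mdivi-1 libraries, grey points Control libraries, circles replicate 1 and triangles replicate 2. *Suz12* stands alone at the left with a mean of 133 CPM per kb, neighbours from *Ezh2* onwards overlap, and a library with a count of 0 has no point on this axis.

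Of the 63 members, 59 passed the filter on low counts. The other 4 were *Prmt8* and *Smyd1*, enzymes known from neurons and muscle, with no count in any library, *Setd7*, an H3K4 monomethyltransferase, and *Kdm5d*, the Y-linked H3K4 demethylase. *Setd7* had 0.376 and 0.521 CPM in the Mdivi-1 libraries and 0.0910 and 3.54 CPM in the Control libraries. *Kdm5d* had counts of 3 and 0 in the Mdivi-1 libraries and of 104 and 0 in the Control libraries, so both genes were set by 1 library.

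No member passed edgeR's quasi-likelihood test with Benjamini-Hochberg adjustment over all genes, where 0% of the 14259 tested genes passed. The smallest adjusted p of a member was 0.153, for *Setd4*. At an unadjusted p under 0.05 edgeR's test took 5 members, which is 8.47% of 59 against 15.9% of all genes tested. *Setd4* and *Kdm6a* were higher in the Mdivi-1 libraries (background 8.27% of genes), and *Prmt6*, *Kdm5b* and *Ehmt2* were lower (background 7.64%). DESeq2, the tool of the study, called *Setd4* higher (background 3.23%) and *Prmt6* lower (background 2.75%) at an adjusted p under 0.05, 2 members where 5.98% of all genes were called. The likelihood ratio test of edgeR called the same 2 members (background 6.10%), and limma-voom called 0 (background 1.42%). A share of members near or below the background is not a result about histone methylation genes as a set. Both Mdivi-1 libraries lay above both Control libraries in 13 members (22.0%, background 26.1%) and below them in 16 (27.1%, background 23.9%), and 30 members overlapped. The median log2 fold change of the members was -0.17, against 0.03 over all genes tested, with 23 members above 0 and 36 below, and a range of -2.95 to 1.45.

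**Figure D2:**
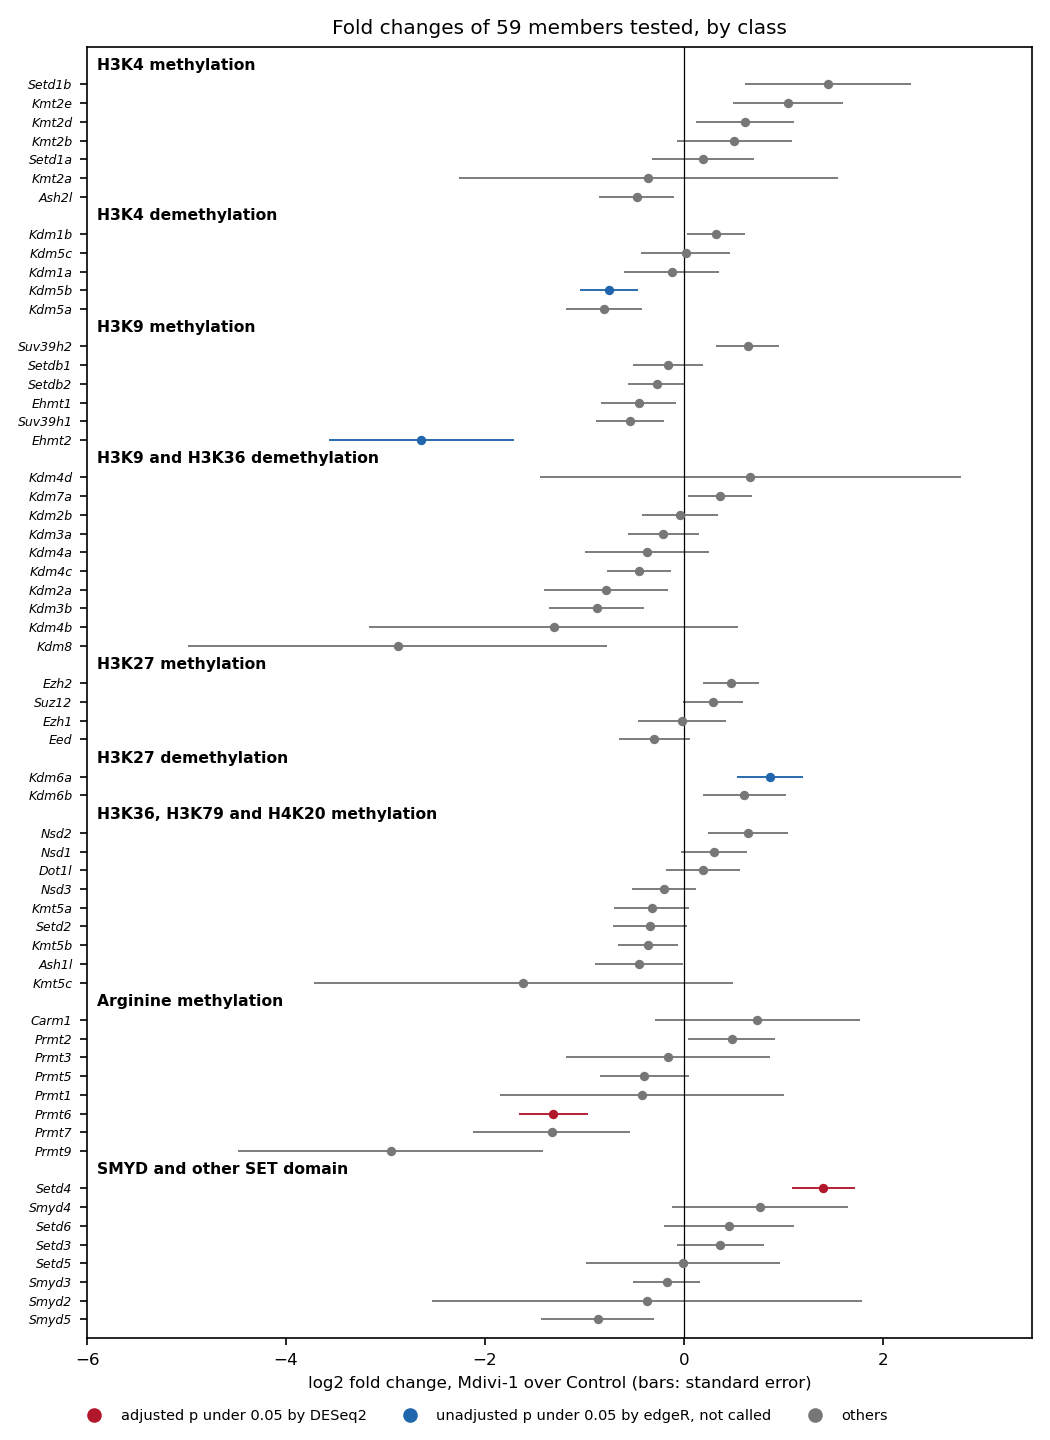
Log2 fold change, Mdivi-1 over Control, of the 59 members tested, with its standard error as a bar, grouped by the mark written or removed. Red marks *Setd4* and *Prmt6*, the members called by DESeq2; blue marks *Kdm6a*, *Kdm5b* and *Ehmt2*, which were not called and had an unadjusted p under 0.05 by edgeR; the other 54 are grey, and the widest bars belong to genes of few counts such as *Kdm8* and *Smyd2*.

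*Setd4*, a SET domain protein whose substrates are not settled, had the smallest p of all members. It had 73.7 and 69.2 CPM in the Mdivi-1 libraries and 27.8 and 26.3 CPM in the Control libraries. The groups were far apart and the libraries within each group were close. The mean was 71.5 ± 3.17 CPM in Mdivi-1 embryos and 27.04 ± 1.02 CPM in Control embryos (SD, n = 2 each), a log2 fold change of 1.40 with a standard error of 0.32, or 2.64-fold. By edgeR's quasi-likelihood test its adjusted p was 0.153, and by DESeq2 0.0154, so *Setd4* rose by DESeq2's test and did not pass edgeR's. Its log2 fold change lay between 1.34 and 1.44 with any 1 library left out, and its DESeq2 adjusted p was 0.0232 without Control replicate 1, 0.0380 without Control replicate 2, 0.411 without Mdivi-1 replicate 1 and 0.245 without Mdivi-1 replicate 2. The gene lies at chr16:93583457-93604063 on the minus strand (GRCm38, GENCODE M21). RefSeq starts *Setd4* inside this gene, downstream of its outermost start, and the 158 bases that precede the RefSeq start and are not in the outermost first exon are shown, at chr16:93603816-93603973 on the minus strand, because this is the member with the clearest difference. Capitals mark an ETS motif, here as CTTCCGG, which is CCGGAAG on the other strand, and a CCAAT box.
Setd4: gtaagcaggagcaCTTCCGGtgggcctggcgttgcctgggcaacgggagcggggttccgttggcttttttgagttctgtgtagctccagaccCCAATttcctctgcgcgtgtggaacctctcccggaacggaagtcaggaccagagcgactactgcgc

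*Prmt6*, the methyltransferase that places asymmetric dimethylation on H3R2 and thereby hinders H3K4 methylation, lay lower in Mdivi-1 embryos. It had 31.7 and 44.5 CPM in the Mdivi-1 libraries and 80.6 and 108 CPM in the Control libraries. Every Mdivi-1 library lay below every Control library, and the gap between groups was wider than that within them. The mean was 38.1 ± 9.05 CPM in Mdivi-1 embryos and 94.5 ± 19.7 CPM in Control embryos (SD, n = 2 each), a log2 fold change of -1.31 with a standard error of 0.34. *Prmt6* fell by DESeq2's test (adjusted p = 0.0229) and did not pass edgeR's quasi-likelihood test (adjusted p = 0.176). The DESeq2 adjusted p was 0.0110 without Control replicate 1, but 0.163 without Control replicate 2, 0.506 without Mdivi-1 replicate 1 and 0.113 without Mdivi-1 replicate 2. Of its 4197 exonic bases, 984 overlap the antisense gene C130013H08Rik. Smart-Seq2 keeps no strand, so reads in that stretch cannot be assigned to either gene. The gene lies at chr3:110246109-110250998 on the minus strand, and the 250 bases before its RefSeq start (chr3:110251000-110251249) are shown beside those of *Setd4* as the other member called. They hold none of the 8 motifs searched, so no letter is in capitals.
Prmt6: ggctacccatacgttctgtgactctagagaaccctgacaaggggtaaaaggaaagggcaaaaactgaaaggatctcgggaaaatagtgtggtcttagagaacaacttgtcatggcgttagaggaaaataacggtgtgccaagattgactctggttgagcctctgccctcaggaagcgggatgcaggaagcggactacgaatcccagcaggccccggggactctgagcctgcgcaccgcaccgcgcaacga

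The other arginine methyltransferases did not all lie on one side of 0. Of these 7 tested, 2 had a log2 fold change above 0 and 5 below, with a median of -0.40. *Carm1*, which methylates H3R17 and H3R26 and biases cells of the mouse embryo towards the inner cell mass, had only 3.44 and 4.48 CPM in the Mdivi-1 libraries and 2.18 and 2.56 CPM in the Control libraries. At counts of 39 to 86 this difference was within its error, with a log2 fold change of 0.74 and a standard error of 1.03. *Prmt5*, which makes symmetric dimethylarginine, had 47.7 and 25.0 CPM in the Mdivi-1 libraries and 61.3 and 34.4 CPM in the Control libraries. Its groups overlapped. *Prmt1*, the main asymmetric arginine methyltransferase of somatic cells, was scarce, with 0.215 and 5.26 CPM in the Mdivi-1 libraries and 2.78 and 4.59 CPM in the Control libraries, and its Mdivi-1 libraries differed more from each other than the groups did. *Prmt2*, a weak enzyme of the same type, had 17.7 and 24.1 CPM in the Mdivi-1 libraries and 16.3 and 13.6 CPM in the Control libraries, a log2 fold change of 0.48 (standard error 0.44).

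The H3K27 demethylases *Kdm6a* and *Kdm6b* both lay higher in Mdivi-1 embryos. *Kdm6a*, an X-linked enzyme that also belongs to the H3K4 methyltransferase complexes of the KMT2D type, had 122 and 171 CPM in the Mdivi-1 libraries and 67.0 and 93.8 CPM in the Control libraries. The groups did not overlap. Its log2 fold change was 0.87 (standard error 0.33, unadjusted p = 0.0323, adjusted p = 0.267 by edgeR's quasi-likelihood test and 0.162 by DESeq2), and the unadjusted p was not under 0.05 when Mdivi-1 replicate 2 or Control replicate 1 was left out. Pools of embryos can differ in their share of males, and the Y-linked paralog *Uty* had 33.7 and 19.96 CPM in the Mdivi-1 libraries and 29.7 and 4.53 CPM in the Control libraries. *Uty* overlapped between groups, and its part in the *Kdm6a* result was not tested. *Kdm6b*, the paralog that cells induce on stimulation, had 104 and 92.7 CPM in the Mdivi-1 libraries and 89.6 and 39.1 CPM in the Control libraries. Control replicate 2 alone was low: the log2 fold change of 0.61 (standard error 0.42) was 1.33 when Control replicate 1 was left out and 0.11 when Control replicate 2 was. *Kdm6a* lies at chrX:18162575-18279936 on the plus strand, and the 250 bases before its start (chrX:18162325-18162574) are shown because it was the demethylase with the smallest p by edgeR's quasi-likelihood test, with a GC box (GGGCGG) in capitals.
Kdm6a: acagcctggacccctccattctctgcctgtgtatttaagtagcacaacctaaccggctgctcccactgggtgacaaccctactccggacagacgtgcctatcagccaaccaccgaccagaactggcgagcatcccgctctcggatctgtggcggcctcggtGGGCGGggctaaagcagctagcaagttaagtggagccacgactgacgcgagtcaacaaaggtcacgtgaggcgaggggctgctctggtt

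The PRC2 genes, which oppose these demethylases, passed no adjusted test. *Ezh2* had 231 and 229 CPM in the Mdivi-1 libraries and 171 and 160 CPM in the Control libraries. *Suz12* had 687 and 758 CPM in the Mdivi-1 libraries and 642 and 541 CPM in the Control libraries. Both lay above the Control libraries in each Mdivi-1 library, by a log2 fold change of 0.47 (standard error 0.28) for *Ezh2* and 0.29 (standard error 0.30) for *Suz12*, and neither passed a test. *Eed* had 186 and 154 CPM in the Mdivi-1 libraries and 148 and 269 CPM in the Control libraries, so it overlapped. *Ezh1*, the weaker catalytic subunit that dominates in resting cells, had 16.1 and 25.4 CPM in the Mdivi-1 libraries and 23.5 and 18.6 CPM in the Control libraries, also overlapping. Of 8 PRC2 accessory subunits tested, 0 passed an adjusted test and 1 had an unadjusted p under 0.05 by edgeR (12.5%, background 15.9%). This was *Mtf2*, which brings PRC2 to CpG-rich DNA, with 376 and 515 CPM in the Mdivi-1 libraries and 767 and 882 CPM in the Control libraries. Its log2 fold change was -0.89, with a DESeq2 adjusted p of 0.0504. *Jarid2*, another targeting subunit, had 62.7 and 53.3 CPM in the Mdivi-1 libraries and 38.4 and 33.8 CPM in the Control libraries (log2 fold change 0.68, adjusted p = 0.354 by edgeR's quasi-likelihood test).

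KDM5 enzymes are known to erase the broad H3K4me3 domains of the oocyte. Of their genes, *Kdm5b* and *Kdm5a* lay lower in Mdivi-1 embryos, and neither passed an adjusted test with all 4 libraries. *Kdm5b* had 257 and 272 CPM in the Mdivi-1 libraries and 485 and 405 CPM in the Control libraries. The Mdivi-1 libraries nearly coincided and stood clear of both Control libraries. The mean was 265 ± 10.1 CPM in Mdivi-1 embryos and 445 ± 57.1 CPM in Control embryos (SD, n = 2 each), a log2 fold change of -0.75 with a standard error of 0.29. Its unadjusted p was 0.0345, with adjusted p = 0.272 by edgeR's quasi-likelihood test and 0.103 by DESeq2, and of the 4 edgeR fits that leave out 1 library, the unadjusted p was under 0.05 only in that without Control replicate 2. *Kdm5a* had 43.96 and 78.3 CPM in the Mdivi-1 libraries and 126 and 87.6 CPM in the Control libraries. The groups did not overlap but came close, and the log2 fold change of -0.81 had a standard error of 0.38. *Kdm5c*, an X-linked paralog, had 43.3 and 46.4 CPM in the Mdivi-1 libraries and 62.2 and 26.3 CPM in the Control libraries, between which the Mdivi-1 libraries lay. Neither flavin-dependent demethylase lay below both Control libraries as *Kdm5b* and *Kdm5a* did. *Kdm1b*, which clears H3K4 methylation from imprinted genes in oocytes, had 177 and 156 CPM in the Mdivi-1 libraries and 122.8 and 144 CPM in the Control libraries, with a log2 fold change of 0.32 (standard error 0.29). *Kdm1a*, whose store in the oocyte the embryo needs to develop past the 2C stage, had 20.9 and 21.4 CPM in the Mdivi-1 libraries and 31.3 and 14.8 CPM in the Control libraries and overlapped. *Kdm5b* lies at chr1:134560171-134635285 on the plus strand. The stretch before its RefSeq start that is outside its GENCODE exons (chr1:134559928-134560170, 243 bases) is shown as the most abundant KDM5 gene of these embryos, with a GC box in capitals.
Kdm5b: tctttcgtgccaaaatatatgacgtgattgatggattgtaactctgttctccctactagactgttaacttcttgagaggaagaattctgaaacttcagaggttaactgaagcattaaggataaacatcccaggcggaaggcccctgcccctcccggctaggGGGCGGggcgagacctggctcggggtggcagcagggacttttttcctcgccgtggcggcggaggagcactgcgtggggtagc

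**Figure D3:**
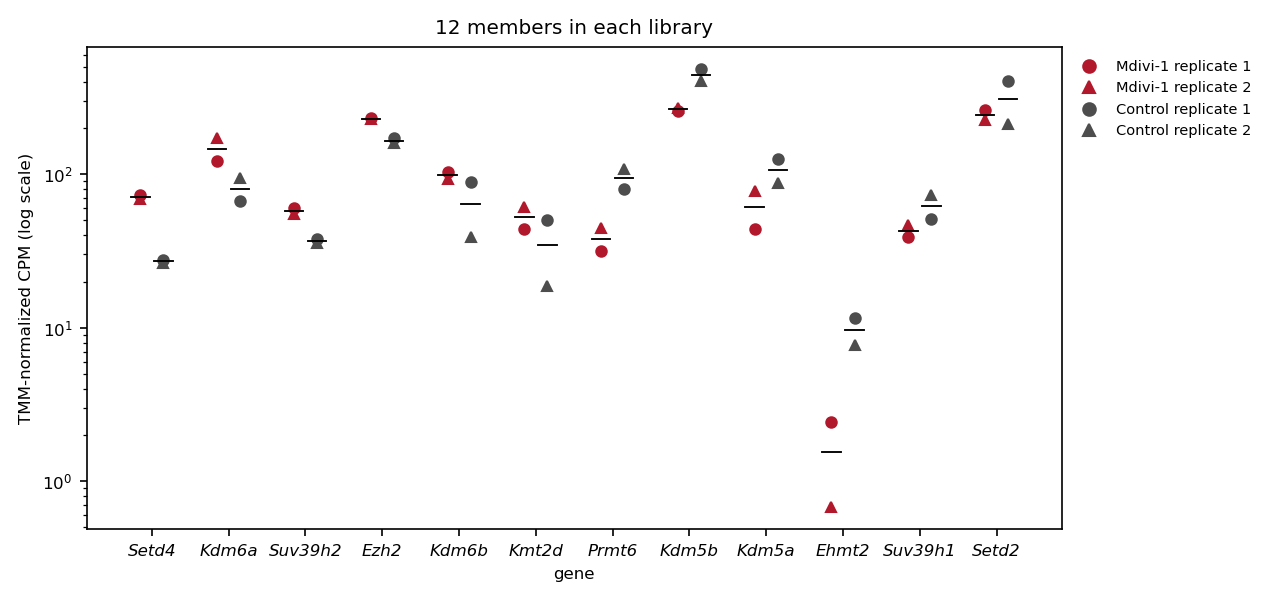
TMM-normalized CPM (log axis) of 12 members, picked after their values were seen, in each library; red points are Mdivi-1 libraries, grey points Control libraries, and the black lines are group means. *Setd4* at 73.7 and 69.2 CPM against 27.8 and 26.3 CPM shows the tightest separation, *Ehmt2* is at most 11.6 CPM in all 4 libraries, and *Kdm6b*, *Kmt2d* and *Setd2* show a wider gap between the 2 Control libraries than between the 2 Mdivi-1 libraries.

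No gene of the H3K4 methylation class passed an adjusted test with all 4 libraries. The 7 tested include *Ash2l* and *Kmt2e*, described below, which are not counted here as active methyltransferases. Of the 7, 5 had a log2 fold change above 0 (background 51.3% of genes tested). The median was 0.51, and 0.05 without Control replicate 2. *Kmt2b*, the enzyme that oocytes need for H3K4me3, had 21.4 and 9.07 CPM in the Mdivi-1 libraries and 11.3 and 10.1 CPM in the Control libraries, and the groups overlapped. *Kmt2d*, an enhancer H3K4 monomethyltransferase, had 44.1 and 61.5 CPM in the Mdivi-1 libraries and 50.2 and 18.6 CPM in the Control libraries. Control replicate 2 stood apart here, and the log2 fold change of 0.61 was 1.502 when Control replicate 1 was left out and 0.05 when Control replicate 2 was. *Kmt2e*, a SET domain protein with little or no enzymatic activity, had 16.7 and 18.3 CPM in the Mdivi-1 libraries and 5.64 and 11.4 CPM in the Control libraries (log2 fold change 1.05, standard error 0.55). *Setd1b*, a COMPASS enzyme of H3K4me3 that oocytes require, had 7.14 and 6.88 CPM in the Mdivi-1 libraries and 2.23 and 2.89 CPM in the Control libraries, the highest log2 fold change of the members at 1.45, but on counts of 44 to 133 and with a standard error of 0.83. It is named after its values were seen. *Ash2l*, the core subunit that all these complexes share, had 20.7 and 25.1 CPM in the Mdivi-1 libraries and 30.1 and 33.7 CPM in the Control libraries (log2 fold change -0.48, standard error 0.37). Of 11 partner genes of these complexes, 0 passed an adjusted test. *Hcfc2* lay lower and *Wdr82*, the subunit particular to SETD1 complexes, higher at an unadjusted p under 0.05 by edgeR, 18.2% of the list where the background was 15.9%. *Wdr82* had 122 and 98.4 CPM in the Mdivi-1 libraries and 69.2 and 52.1 CPM in the Control libraries. *Hcfc2*, a relative of the chromatin adaptor HCF1, had 4.83 and 5.94 CPM in the Mdivi-1 libraries and 15.4 and 19.7 CPM in the Control libraries.

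Of the 6 H3K9 methyltransferases, 5 had a log2 fold change below 0 (background 48.7% of genes tested), and 4 lay below both Control libraries (background 23.9%). Their median was -0.36, and -0.18 without Control replicate 1. *Ehmt2*, which encodes G9a, the enzyme of H3K9me1 and H3K9me2, had 2.42 and 0.678 CPM in the Mdivi-1 libraries and 11.6 and 7.68 CPM in the Control libraries. The groups were separated, but on counts of 45 and 13 in the Mdivi-1 libraries and of 256 and 117 in the Control libraries. Its log2 fold change was -2.64 with a standard error of 0.93, with unadjusted p = 0.0225, adjusted p = 0.242 by edgeR's quasi-likelihood test and 0.0872 by DESeq2. The log2 fold change was -3.82 without Mdivi-1 replicate 1 and -2.01 without Mdivi-1 replicate 2, and the unadjusted p was not under 0.05 in the second of these fits or when Control replicate 1 was left out. *Ehmt1*, which encodes GLP, the partner without which G9a is unstable, had 27.4 and 26.0 CPM in the Mdivi-1 libraries and 43.6 and 29.5 CPM in the Control libraries (log2 fold change -0.45, standard error 0.38). *Suv39h1* and *Suv39h2*, the enzymes of H3K9me3 at pericentric heterochromatin, had fold changes of opposite sign. *Suv39h1* had 38.9 and 46.8 CPM in the Mdivi-1 libraries and 51.3 and 73.7 CPM in the Control libraries. *Suv39h2* had 59.8 and 54.7 CPM in the Mdivi-1 libraries and 37.7 and 35.7 CPM in the Control libraries. Neither gene overlapped between groups. The log2 fold change was -0.54 for *Suv39h1* (standard error 0.34) and 0.64 for *Suv39h2* (standard error 0.32), and neither passed a test. *Setdb1*, the H3K9me3 enzyme that silences retroviral elements with TRIM28, had 51.2 and 34.2 CPM in the Mdivi-1 libraries and 50.9 and 44.5 CPM in the Control libraries, and the groups overlapped. *Setdb2* had 96.7 and 89.5 CPM in the Mdivi-1 libraries and 117 and 109 CPM in the Control libraries, a log2 fold change of -0.27 (standard error 0.28).

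Among 9 partners of the H3K9 enzymes and readers of their mark, 3 had a log2 fold change above 0 and 6 below. Their median was -0.59, and DESeq2 called 1 gene lower (background 2.75%), *Cbx3*. *Cbx3* encodes HP1γ, a reader of H3K9 methylation, and had 1040 and 888 CPM in the Mdivi-1 libraries and 1665 and 1830 CPM in the Control libraries. The groups were well separated, and *Cbx3* fell by DESeq2's test (log2 fold change -0.86, adjusted p = 0.0369), with adjusted p = 0.254 by edgeR's quasi-likelihood test. *Cbx5*, which encodes HP1α, had 73.9 and 67.1 CPM in the Mdivi-1 libraries and 111 and 158 CPM in the Control libraries, with a DESeq2 adjusted p of 0.0933. *Cbx1*, the other Cbx gene of the list, went the other way and is named after its values were seen. It had 57.9 and 45.1 CPM in the Mdivi-1 libraries and 31.0 and 35.2 CPM in the Control libraries (log2 fold change 0.64, standard error 0.34). *Trim28* had 60.3 and 66.1 CPM in the Mdivi-1 libraries and 110 and 90.2 CPM in the Control libraries, a log2 fold change of -0.66 (standard error 0.30).

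The class of H3K9 and H3K36 demethylation held 10 genes, among them *Kdm8*, which is not counted here as a demethylase. Their median log2 fold change was -0.42, with 8 below 0 (background 48.7%). None passed a test (smallest adjusted p 0.417 by edgeR's quasi-likelihood test). The median was 0.07 without Control replicate 1. *Kdm3b*, an H3K9me2 demethylase, had 20.3 and 10.3 CPM in the Mdivi-1 libraries and 24.5 and 31.6 CPM in the Control libraries (log2 fold change -0.87, standard error 0.48). *Kdm4c*, which removes H3K9me3 and H3K36me3, had 78.0 and 53.3 CPM in the Mdivi-1 libraries and 86.8 and 93.3 CPM in the Control libraries (log2 fold change -0.46, standard error 0.32). In both genes the gap between the groups was smaller than that between the Mdivi-1 libraries. *Kdm4a*, a maternal H3K9me3 demethylase needed for preimplantation development, had 10.5 and 12.2 CPM in the Mdivi-1 libraries and 22.1 and 7.35 CPM in the Control libraries, between which the Mdivi-1 libraries lay. *Kdm4d*, used in the same role to improve nuclear transfer embryos, had counts of 86 and 5 in the Mdivi-1 libraries and of 67 and 0 in the Control libraries, so replicates differed more than groups. *Kdm2b*, the CpG-binding H3K36 demethylase of a variant PRC1 complex, had 55.1 and 33.1 CPM in the Mdivi-1 libraries and 51.7 and 39.0 CPM in the Control libraries. The 3 named last all overlapped between groups.

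Enzymes of H3K36, H3K79 and H4K20 had a median log2 fold change of -0.33 over 9 genes, which was 0.20 without Control replicate 1. *Setd2*, the enzyme of H3K36me3 that sets the DNA methylation of oocytes, had 260 and 226 CPM in the Mdivi-1 libraries and 404 and 211 CPM in the Control libraries. Control replicate 1 alone was high. *Nsd2*, an H3K36me2 enzyme, had 62.0 and 33.0 CPM in the Mdivi-1 libraries and 29.7 and 31.0 CPM in the Control libraries, with 1 high Mdivi-1 library. *Dot1l*, the only H3K79 methyltransferase of mammals, had 43.6 and 54.2 CPM in the Mdivi-1 libraries and 52.7 and 32.7 CPM in the Control libraries and overlapped. *Kmt5a*, the H4K20 monomethyltransferase of the cell cycle, had 52.4 and 47.4 CPM in the Mdivi-1 libraries and 81.6 and 43.4 CPM in the Control libraries and also overlapped. *Kmt5b*, which adds further methyl groups to H4K20, had 58.3 and 54.5 CPM in the Mdivi-1 libraries and 67.2 and 77.6 CPM in the Control libraries, a log2 fold change of -0.36 (standard error 0.30). In the remaining class, SMYD and other SET domain genes, 8 were tested, 4 lay above 0 and 4 below, and *Setd4* was the only gene that DESeq2 called.

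The members include close paralogs that share a substrate, so their ratio of counts was taken within each library, where library scaling cancels. The 16 pairs were picked after values of the members had been seen, and some share a gene. In 6 of the 16 pairs the groups did not overlap, and with 2 libraries against 2 the smallest p an exact permutation test can give is 0.333. No share over other gene pairs was computed. Among single genes tested, 26.1% lay above both Control libraries in both Mdivi-1 libraries and 23.9% lay below. The count of 6 is therefore not a result about these pairs, and the ratios below are descriptive. The ratio of *Suv39h2* to *Suv39h1* was 1.54 and 1.17 in the Mdivi-1 libraries and 0.736 and 0.484 in the Control libraries. The share of *Suv39h2* in the pair was thus higher in both Mdivi-1 libraries than in either Control library. The ratio of *Ehmt2* to *Ehmt1* was 0.0881 and 0.0261 in the Mdivi-1 libraries and 0.268 and 0.260 in the Control libraries, so the share of *Ehmt2* was lower in both Mdivi-1 libraries, and this was the most uniform ratio among Control libraries of all pairs. The ratio of *Kdm5c* to *Kdm5a* was 0.984 and 0.593 in the Mdivi-1 libraries and 0.493 and 0.300 in the Control libraries. The ratio of *Setd1b* to *Setd1a* was 0.369 and 0.552 in the Mdivi-1 libraries and 0.130 and 0.272 in the Control libraries. The last 2 ratios were higher in Mdivi-1 embryos. The ratio of *Nsd3* to *Nsd1* was 0.358 and 0.348 in the Mdivi-1 libraries and 0.435 and 0.606 in the Control libraries. The ratio of *Ezh2* to *Ezh1* was 14.4 and 9.01 in the Mdivi-1 libraries and 7.30 and 8.63 in the Control libraries, with 1 Mdivi-1 library close to the Control libraries. The other 10 pairs overlapped.

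**Figure D4:**
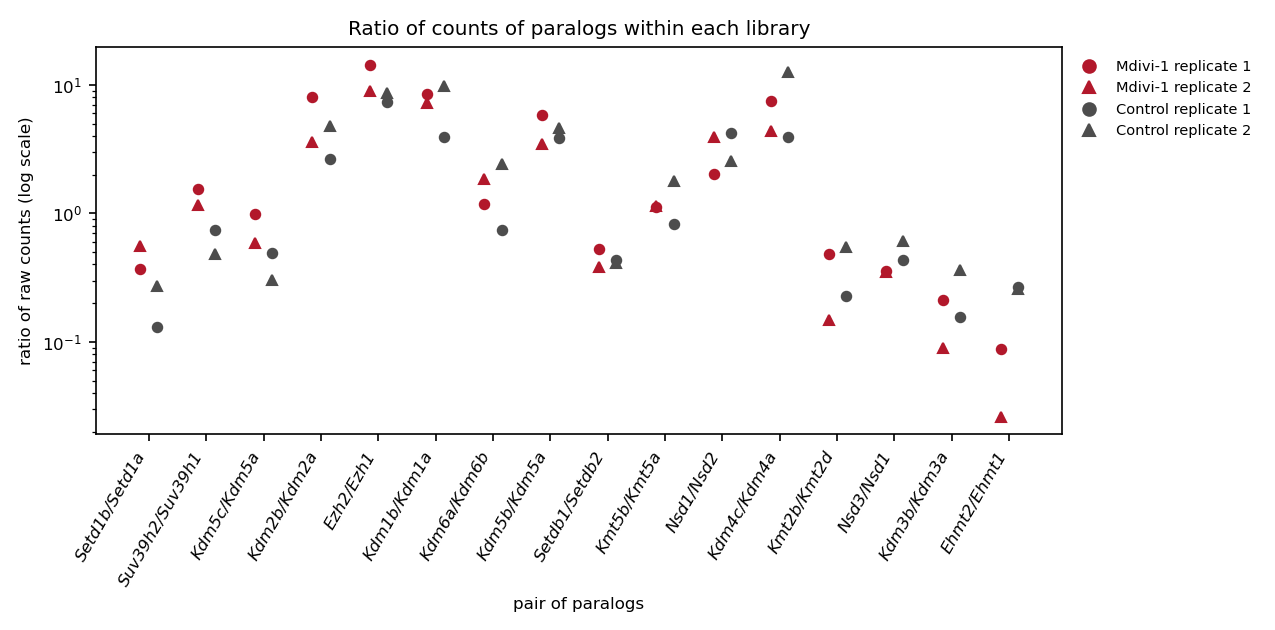
Ratio of raw counts (log axis) of 16 pairs of paralogs within each library, ordered by the difference of the mean log2 ratio, Mdivi-1 minus Control; red points are Mdivi-1 libraries, grey points Control libraries, circles replicate 1 and triangles replicate 2. Groups are apart in *Setd1b*/*Setd1a*, *Suv39h2*/*Suv39h1*, *Kdm5c*/*Kdm5a*, *Ezh2*/*Ezh1*, *Nsd3*/*Nsd1* and *Ehmt2*/*Ehmt1*, and the *Suv39h2*/*Suv39h1* ratio is 1.54 and 1.17 in the Mdivi-1 libraries and 0.736 and 0.484 in the Control libraries.

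Much of the members' pattern rested on which Control library was used. Control replicate 1 was above Control replicate 2 in 39 of 59 members (66.1%, against 50.9% of all genes tested). The median absolute log2 ratio between replicates was 0.314 for the members in the Mdivi-1 libraries and 0.586 in the Control libraries, against 0.548 and 0.692 over all genes. Without Control replicate 1 the members' median log2 fold change was 0.18, and without Control replicate 2 it was -0.27. The sign differed between these fits in 21 members (35.6%, against 29.5% of all genes tested), while 17 were above 0 and 21 below 0 in both. *Setd4*, *Prmt6*, *Kdm6a*, *Kdm5b* and *Ehmt2* kept their sign. With Control replicate 1 left out *Kdm6a* had a log2 fold change of 0.64, *Kdm5b* -0.61 and *Setd2* 0.20. With Control replicate 2 left out *Kdm6a* had 1.11, *Kdm5b* -0.89 and *Setd2* -0.75, so *Setd2* alone of these changed sign. DESeq2 without Control replicate 1 called 4 members (*Kdm6b*, *Kmt2d*, *Prmt6* and *Setd4*), and without Control replicate 2 it called 2 (*Kdm5b* and *Setd4*). In such a fit the lone Control library is assumed to vary like the Mdivi-1 libraries.

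**Figure D5:**
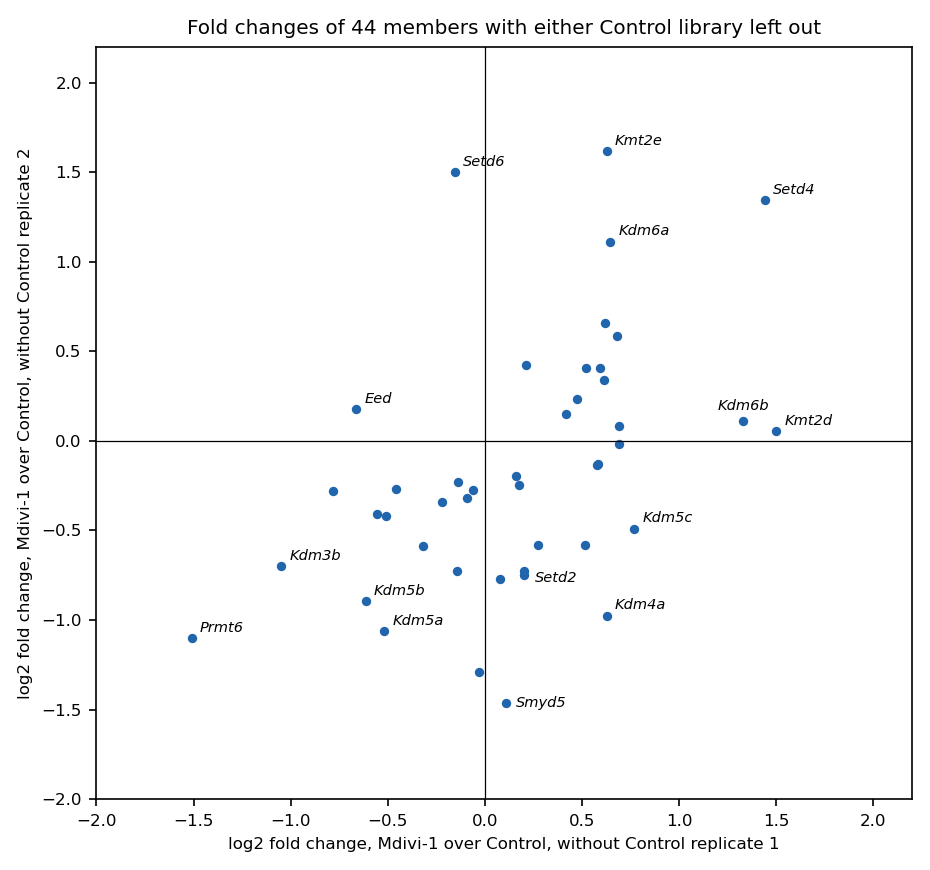
Log2 fold change, Mdivi-1 over Control, without Control replicate 1 (horizontal axis) and without Control replicate 2 (vertical axis) of the 44 members with a mean of at least 10 CPM. Points in the upper right and lower left quadrants, 14 and 15 members with *Setd4* and *Prmt6* among them, keep their sign, and the other 15 change it, 13 of them in the lower right quadrant (such as *Kdm4a* and *Setd2*).

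Other genes of the pathway were counted from lists. Of 23 histone methylation enzymes and relatives that the naming rule did not take, 19 were tested, and DESeq2 called 3 lower (background 2.75%). *Riox2* and *Riox1*, JmjC oxygenases of ribosomal proteins to which histone demethylation has also been ascribed, were lower. *Riox2* had 33.2 and 43.8 CPM in the Mdivi-1 libraries and 93.7 and 113 CPM in the Control libraries (log2 fold change -1.42, DESeq2 adjusted p = 0.00707). *Riox1* had 10.6 and 9.64 CPM in the Mdivi-1 libraries and 40.2 and 29.1 CPM in the Control libraries (log2 fold change -1.77, DESeq2 adjusted p = 0.0179). *Prdm14*, a pluripotency regulator of the PR domain family, was the third that fell, and had 13.7 and 4.01 CPM in the Mdivi-1 libraries and 36.8 and 47.5 CPM in the Control libraries. In none of the 3 did the groups overlap, and edgeR's quasi-likelihood test passed 0 of them after adjustment (smallest adjusted p 0.153).

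Histone methyltransferases use S-adenosylmethionine as methyl donor, and JmjC demethylases use 2-oxoglutarate, a metabolite of the mitochondrial citric acid cycle. The 12 genes tested that supply or remove these metabolites had a median log2 fold change of 0.06, with 6 above 0 and 6 below. *Mat2a*, the enzyme that makes S-adenosylmethionine, had 87.2 and 107 CPM in the Mdivi-1 libraries and 197 and 119 CPM in the Control libraries (log2 fold change -0.70, standard error 0.34). *Ogdh*, which uses 2-oxoglutarate in the cycle, had 127 and 102 CPM in the Mdivi-1 libraries and 65.2 and 91.6 CPM in the Control libraries (log2 fold change 0.55, standard error 0.32). The 9 partners of the H3K4 demethylases had a median log2 fold change of -0.08, with 4 above 0 and 5 below. *Rcor1*, the scaffold of the KDM1A complexes, had 68.4 and 80.2 CPM in the Mdivi-1 libraries and 147 and 97.0 CPM in the Control libraries. Among 8 partners of PRMT5 and PRMT1, DESeq2 called 1 higher (background 3.23%), *Btg4*, which is better known as an adaptor for the decay of maternal mRNA. It had 1650 and 3614 CPM in the Mdivi-1 libraries and 380 and 656 CPM in the Control libraries (log2 fold change 2.35, DESeq2 adjusted p = 4.0e-06). *Clns1a*, the PRMT5 partner that directs it to spliceosomal proteins, had 43.6 and 113 CPM in the Mdivi-1 libraries and 157 and 155 CPM in the Control libraries (log2 fold change -0.998, standard error 0.45).

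Promoters of the members were also compared with all promoters of a reference set, in features that the naming rule did not use. Of the 63 members, 48 matched a RefSeq promoter (GRCm38.p6), with 61 entries, of 32851 entries in the table. The 250 bases before the start held a median of 20 CpG dinucleotides in the members and 6 over all entries, and the median GC content was 61.6% and 52.4%. On either strand, a GC box (GGGCGG) was found in 63.9% of members' entries and 32.7% of all, and the NRF1 motif in 14.8% and 3.74%. The ETS motif (CCGGAAG) was found in 13.1% of members' entries and 6.91% of all, the CCAAT box (CCAAT) in 44.3% and 33.8%, and the cyclic AMP response element (TGACGTCA) in 3.28% and 1.55%. The YY1 motif (AANATGGCG) was found in 1.64% of members' entries and 1.12% of all. The TATA box (TATAAA) was found in 4.92% of members' entries and 12.4% of all, and the NR5A2 motif (CAAGGNCA) in 0% and 5.53%. The members' entries were not alike, with CpG counts from 0 (an entry of *Kdm3a*) to 56 (*Kdm7a*). No share over the genes tested in these embryos was computed. CpG-rich DNA holds more GC-rich motifs, and some members have several overlapping entries, so these shares describe the windows only. The 4 promoters printed above were typical in lacking a TATA box and otherwise differed: *Kdm6a* and *Kdm5b*, whose fold changes had opposite signs, each held a single GC box, and *Prmt6* held no motif searched.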

How the data were processed

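RNA of late 2C embryos was amplified by Smart-Seq2, which keeps neither strand nor molecule tags. The authors trimmed reads of 150 bases with cutadapt 1.16, mapped them with STAR at default settings (build mm10 in the submitters' processing notes) and counted reads in exons with its GeneCounts setting and a GENCODE annotation. The deposited table holds these raw counts, a signal (each count over its library's size factor) and the authors' own DESeq2 comparison, whose fold changes and p-values were not used. The signal was used only to check the columns. Columns of other samples numbered 0.

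The raw counts were filtered with filterByExpr (minimum count 10), normalized by TMM (factors 1.05 and 1.04 in Mdivi-1 replicates 1 and 2, 1.10 and 0.834 in Control replicates 1 and 2) and tested over all 14259 genes with the two-sided quasi-likelihood test of edgeR 4.0.16 in R 4.3.3, with Benjamini-Hochberg adjustment. The biological coefficient of variation was 0.66. Standard errors were worked back from this test. DESeq2 1.42.0, limma-voom of limma 3.58.1, edgeR's likelihood ratio test, other scalings and filters, the replicate number as a block, and fits without each library or without transcripts of the mitochondrial genome were alternatives. Within a group, counts differed by far more than counting error (chi-square per degree of freedom 55.6 in Mdivi-1 and 122 in Control), so each library was counted as 1 replicate. The scripts were tested on simulated data with known changes.

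The members and lists were chosen with earlier results of these data known. Named genes are up to 10 members in each direction with the smallest p among those of at least 10 CPM whose groups do not overlap, members that DESeq2 called, members known from oocytes and cleavage embryos, the 3 with the highest level per kilobase, and up to 3 genes of each partner list by p. Of the other lists, sperm markers summed to 6.07 and 2.61 CPM in the Mdivi-1 libraries and 1.91 and 0 CPM in the Control libraries, blood markers to 56.1 and 48.1 CPM and 60.5 and 58.5 CPM, nearly all *Hba-a1*, and later blastocyst markers to 2.95 and 5.21 CPM and 2.68 and 8.00 CPM, with *Cdx2* and *Sox17* at 0. Coordinates and exonic lengths are from GENCODE M21 (GRCm38), and promoter sequences from RefSeq (GRCm38.p6). Reads that overlapping or antisense genes share cannot be assigned, which touches *Prmt6* most among the genes called. Transposons and chromatin data were not analysed here, and some genes of the lists are not reported here.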

Additional observations from a re-analysis of the deposited data

How the results depend on the processing

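With 2 libraries a group and a biological coefficient of variation of 0.66, the adjusted count depended on the tool. It was 0 members by edgeR's quasi-likelihood test and 2 members (*Prmt6* and *Setd4*) by DESeq2, by edgeR's likelihood ratio test and with no low-count filter. With any library left out it ranged over 0 to 4, DESeq2 included, a fit chosen after seeing the data. At an unadjusted p under 0.05, members higher ranged over 1 to 4 and members lower over 2 to 7 with a library left out, and the members' median log2 fold change over -0.28 to 0.18. With library totals in place of TMM the median log2 fold change of all genes moved from 0.03 to 0.14, and the share of higher among genes at an unadjusted p under 0.05 from 52.0% (1179 higher, 1089 lower) to 62.6% (1287 higher, 769 lower). Under the same scaling *Ezh1* had 0.071 and *Kdm2b* 0.051, with signs opposite to those under TMM, and the members' median was -0.07. The cause of these shifts was not tested.

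The replicate numbers did not pair the libraries (correlation of same-numbered deviations 0.0081), and the replicate block left 4 members at an unadjusted p under 0.05, without *Kdm5b*, and 0 after adjustment. Of 612 alternative values of 36 single members, 566 kept their direction and side of the threshold, 12 passed it only there, and 34, from 13 members, changed sign. With a library left out, log2 fold changes ranged over -0.13 to 0.58 for *Dot1l*, -0.70 to 0.18 for *Eed*, -0.40 to 0.27 for *Ezh1*, -0.58 to 0.52 for *Kdm1a*, -0.46 to 0.27 for *Kdm2b*, -0.98 to 0.63 for *Kdm4a*, -0.24 to 0.99 for *Kmt2b*, -0.73 to 0.20 for *Kmt5a*, -4.11 to 0.52 for *Prmt1*, -0.94 to 0.078 for *Prmt5*, -0.75 to 0.20 for *Setd2* and -0.48 to 0.092 for *Setdb1*. For *Kdm4d* they ranged over -2.55 to 8.43, the upper value against a Control library with no count, where a fitted value is no bound.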
